A study of Mus musculus with 8 samples.

Results

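Lysosomal hydrolases and membrane proteins were followed across 8 expression arrays of mouse macrophages. The set holds 47 genes listed by name: 10 proteases, 12 glycosidases and glycoprotein hydrolases, 4 sulfatases, 6 lipid hydrolases and activators, 2 acid phosphatases, 8 membrane or transport proteins, 4 genes of the proton pump and progranulin. A gene's probes were those whose transcript belonged to it, and all 47 genes had at least 1 probe, 63 in all, among 14491 named genes that were tested. Every one of the 47 was well above background on all 8 arrays.

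The macrophages came from male mice treated with LPS, the endotoxin of gram-negative bacteria, and were either wild-type (WT 1 to 4) or knockouts of EP2 (EP2KO 1 to 4), a prostaglandin E2 receptor encoded by Ptger2. Every group received LPS, so no untreated level was measured. The labels give no strain, age, LPS dose, time, body site or method of isolation, nor whether the knockout was confined to some cells. Whether each replicate was a mouse of its own is not stated, so the p-values reflect the spread between these samples, which may be technical.

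Lysosomes are acidic compartments in which macrophages break down what they engulf. Soluble hydrolases are made in the secretory pathway, tagged with mannose 6-phosphate, carried to the lysosome and activated there at low pH, which the vacuolar proton pump maintains. Membrane glycoproteins such as Lamp1 line the compartment, and transporters export the products. Transcription factors of the MiT/TFE family, TFEB among them, are known to bind a palindromic element in the promoters of many lysosomal genes.

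The arrays lay on 2 slides. Slide 1 held WT 1, WT 2, EP2KO 1 and EP2KO 2, and slide 2 held WT 3, WT 4, EP2KO 3 and EP2KO 4. Each slide was scanned on a day of its own, so slide, scan day and replicates 1 and 2 against 3 and 4 cannot be told apart. Positions 1 and 2 of either slide carried WT and positions 3 and 4 carried EP2KO, and these also cannot be told apart. Between 25565 and 32156 of 39429 gene probes were well above background, and 0 gene spots were saturated. Signal is given as a multiple of each array's 75th percentile, which ran from 987 to 1508 intensity units, and differences are log2 differences with their standard error (SE) from the limma fit. Ptger2 was lower on every EP2KO array (0.224 to 0.357) than on every WT array (0.899 to 1.12), although its limma adjusted p was 0.0615 without a block, 0.0328 with a slide block and 0.217 under the replicate block. Of 12 macrophage markers, 11 had a probe and all 11 were well above background on all 8 arrays.

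Promoter sequence was examined first because the set is known for a shared element. The RefSeq promoter table (GRCm38.p6, 250 bases before to 50 after each start) held a window for 40 of the 47 genes. The E-box core CACGTG, a palindrome read on both strands at once, stood in the window of 13 of these 40 genes (32.5%), against 8.09% of 27025 genes in the table and 10.9% of 11536 tested named genes. The longer palindrome TCACGTGA, which contains the core, stood in 5 of the 40 (12.5%), against 1.12% and 1.92%. A match is a description of letters and not a measured binding site. The stretches below lie upstream of the start and are written 5′ to 3′ on the gene's strand, with the core or the longer motif in capitals. They are shown for the 5 genes with the longer motif, for Lamp1 with its 4 core copies, and for Glb1, Naglu and Arsa, whose signals are described further on.
Ctsa, chr2:164833741-164833772, plus strand: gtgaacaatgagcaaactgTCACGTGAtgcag
Ctsd, chr7:142387900-142387945, minus strand: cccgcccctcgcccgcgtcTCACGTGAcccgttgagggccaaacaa
Gla, chrX:134601174-134601252, minus strand: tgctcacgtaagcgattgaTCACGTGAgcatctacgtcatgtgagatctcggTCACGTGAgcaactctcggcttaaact
Cln3, chr7:126583332-126583405, minus strand: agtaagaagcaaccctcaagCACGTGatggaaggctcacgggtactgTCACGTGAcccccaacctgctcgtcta
Mcoln1, chr8:3500428-3500499, plus strand: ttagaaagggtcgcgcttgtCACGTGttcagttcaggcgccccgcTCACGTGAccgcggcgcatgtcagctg
Lamp1, chr8:13159080-13159160, plus strand: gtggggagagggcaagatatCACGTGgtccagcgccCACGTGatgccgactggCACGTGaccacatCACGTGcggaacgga
Glb1, chr9:114401010-114401055, plus strand: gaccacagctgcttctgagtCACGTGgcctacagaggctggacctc
Naglu, chr11:101070001-101070046, plus strand: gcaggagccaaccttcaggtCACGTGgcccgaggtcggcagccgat
Arsa, chr15:89477425-89477460, minus strand: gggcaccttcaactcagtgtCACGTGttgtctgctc

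The first comparison, EP2KO against WT, asked whether loss of the receptor went with a different level of these genes. No lysosomal gene passed the test: 0 of 47 were called by limma at an adjusted p of 0.05, where 0.00965% of all 20736 features (2) were. With the slide as a block 0 of 47 were called as well, against 0.0193% of all features (4). The signal was nevertheless slightly higher in EP2KO for most of them. The log2 difference was above 0 for 40 of 47 genes (85.1%) and for 43.4% of all features, with a median of 0.19 over the 47 and -0.03 over all features.

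The counts are given by slide as descriptions, since the interaction test called 0 of 47 genes and its direction over the set turned under quantile normalization. On slide 1 the difference was above 0 for 27 of 47 genes (57.4%, against 36.6% of all features), with a median of 0.02. On slide 2 it was above 0 for 43 of 47 (91.5%, against 56.7%), with a median of 0.32. In all, 25 genes (53.2%) were higher in EP2KO on both slides, against 14.8% of all features. Another 18 (38.3%) were lower on slide 1 and higher on slide 2, no larger a share than the 41.9% of all features. Ctsc and Ppt1 were lower on both slides, against 21.5% of all features. Aga and Arsb were higher on slide 1 and lower on slide 2, against 21.8%. Leaving out 1 array unbalances the slides and moved the median over the 47. It was 0.02 without EP2KO 3 and 0.02 without EP2KO 4, with 25 of 47 genes above 0 each time, and 0.06 and 0.05 without WT 1 and WT 2. It was 0.31 and 0.30 without WT 3 and WT 4, and 0.35 and 0.34 without EP2KO 1 and EP2KO 2. With the slide as a block, a fit added after the data had been seen, it stayed between 0.17 and 0.23 whichever array was left out, with 35 to 43 genes above 0.

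**Figure D1:**
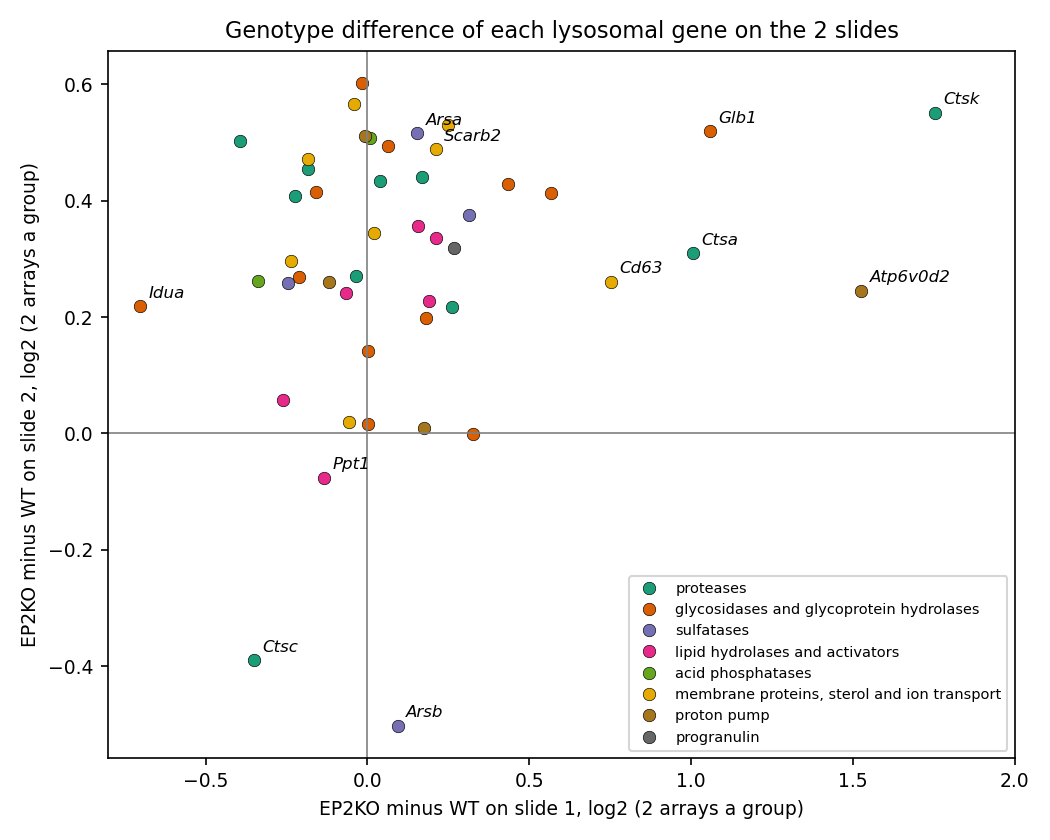
Each point is 1 of the 47 genes, coloured by role, with the log2 difference EP2KO minus WT on slide 1 along the horizontal axis and on slide 2 along the vertical axis, 2 arrays a genotype on each slide. Of the 47 points, 43 lie above the horizontal line, and they spread to both sides of the vertical line.

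Glb1 encodes the lysosomal beta-galactosidase. With the slide as a block it had the smallest unadjusted limma p of the set (0.00148), hardly below that of Gaa (0.0015). The signal of Glb1 in WT 1 to 4 was 5.67, 5.05, 10.72 and 12.4, and in EP2KO 1 to 4 it was 10.3, 12.0, 14.7 and 18.6. Both EP2KO arrays were above both WT arrays within each slide, although the groups overlapped across slides. The difference was 0.79 ± 0.34 (SE, n = 4 per genotype), with an SE of 0.16 under the slide block. It was 1.06 on slide 1 and 0.52 on slide 2. Adjusted over all features, the limma p was 1 without the block and 0.236 with it.

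Arsa encodes arylsulfatase A, which removes sulfate from sulfatide. Its signal was 9.66, 10.9, 7.92 and 8.24 in WT and 11.4, 11.4, 11.6 and 11.5 in EP2KO, in the order of the replicates here and below. It was the only gene of the 47 whose genotype groups did not overlap, where 1.39% of 20705 features without a missing value did not overlap. The difference of 0.34 ± 0.14 had an unadjusted limma p of 0.0436 and an adjusted p of 1. Scarb2, the membrane protein that carries glucocerebrosidase to lysosomes, had signals of 3.88, 4.65, 3.30 and 3.39 in WT and 4.77, 5.06, 4.56 and 4.83 in EP2KO. Only WT 2 reached into the EP2KO range. Its difference of 0.35 ± 0.15 had an unadjusted limma p of 0.0446 and an adjusted p of 1. Arsa and Scarb2 were the 2 genes of the 47 with an unadjusted p under 0.05, while 1.98% of all features had one.

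With the slide as a block, the number with an unadjusted p under 0.05 was 15 of 47 (14 higher and 1 lower in EP2KO), where 7.34% of all features had one. With the replicate number as a block it was 9 of 47, against 5.45%. Besides Glb1, Arsa and Scarb2, the 14 higher genes were Gaa (0.43 ± 0.09), Naglu (0.49 ± 0.10), Npc1 (0.39 ± 0.10), Sgsh (0.35 ± 0.10), Ctsk, Grn (0.29 ± 0.10), Ctsd (0.30 ± 0.10), Ctsa, Tpp1 (0.24 ± 0.09), Psap (0.26 ± 0.11) and Atp6v0d2, with these slide-blocked SEs. None of the 15 had an adjusted p below 0.236 under the slide block. The dimmer probe of Sgsh, for the same transcript, gave 0.11 over all arrays, with -0.38 on slide 1 and 0.60 on slide 2. At the brighter probe these were 0.32 and 0.37. Second probes of Gaa, Ctsd and Atp6v0d2 gave 0.69, 0.61 and 0.98, and that of Ctsa is given below.

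The lower gene was Ctsc, the dipeptidyl peptidase known for activating serine proteases of immune granules. Its signal was 21.8, 26.8, 12.0 and 12.7 in WT and 19.2, 18.8, 9.0 and 9.86 in EP2KO. Within each slide both EP2KO arrays lay below both WT arrays, with differences of -0.35 on slide 1 and -0.39 on slide 2. Over all arrays the difference was -0.37 ± 0.10 with the slide as a block (limma adjusted p = 0.395).

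The 2 largest genotype differences belonged to the 2 genes whose level differed most between slides. Ctsk encodes cathepsin K, a collagen-degrading protease best known from osteoclasts. Its signal was 1.47, 0.578, 42.7 and 62.3 in WT and 2.68, 3.59, 83.3 and 68.5 in EP2KO. EP2KO was higher within each slide, by 1.75 on slide 1 and 0.55 on slide 2, and the difference over all arrays was 1.15 ± 1.90. Atp6v0d2, a proton pump subunit of osteoclasts and macrophages, read 0.836, 0.365, 22.3 and 24.7 in WT and 1.23, 2.06, 27.3 and 28.3 in EP2KO, a difference of 0.89 ± 1.74. Without WT 2, which leaves WT with 1 array on slide 1 and 2 on slide 2, the difference over all arrays changed sign, to -0.04 for Ctsk and -0.22 for Atp6v0d2. With the slide as a block and WT 2 left out it was 0.76 for Ctsk and 0.52 for Atp6v0d2, and the remaining WT array of slide 1 was still below both EP2KO arrays there.

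WT 2 was also the lowest array for Ctsa and Cd63. Ctsa encodes the serine carboxypeptidase that holds beta-galactosidase and neuraminidase in a complex, and its signal was 31.9, 18.5, 100 and 80.6 in WT and 46.6, 51.1, 100 and 124 in EP2KO. The difference was 0.66 ± 0.60 at this probe, but a dimmer probe for another Ctsa transcript gave -0.004, so the genotype difference was not shared by the gene's probes. Cd63, a tetraspanin of late endosomes and lysosomes, read 32.4, 17.8, 101 and 88.6 in WT and 36.5, 44.7, 106.9 and 120.3 in EP2KO, a difference of 0.51 ± 0.66.

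Among the remaining genes with values lower in EP2KO, Idua, which cleaves iduronic acid from glycosaminoglycans, read 9.95, 9.11, 2.91 and 2.53 in WT and 5.84, 5.87, 2.69 and 3.70 in EP2KO. Arsb, the sulfatase of dermatan sulfate, was dim throughout, at 0.1, 0.0659, 0.180 and 0.160 in WT and 0.0827, 0.0910, 0.109 and 0.132 in EP2KO. Its difference was 0.09 on slide 1 and -0.50 on slide 2. Arsb arrays of the genotypes overlapped, as did those of Idua. The genotype difference of Idua was -0.24 at this probe and 0.13 at its dimmer probe for the same transcript, so its direction depended on the probe.

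Ppt1, a palmitoyl-protein thioesterase, read 1.23, 1.86, 2.41 and 2.11 in WT and 1.38, 1.37, 1.98 and 2.31 in EP2KO, a difference of -0.11 ± 0.27. Asah1, acid ceramidase, read 7.59, 9.23, 9.91 and 9.11 in WT and 6.46, 7.57, 8.86 and 11 in EP2KO, a difference of -0.10 ± 0.19, where its dimmer probe gave 0.08. The genotypes overlapped for both genes, and both differences turned positive under median centring of the arrays (0.03 and 0.04).

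**Figure D2:**
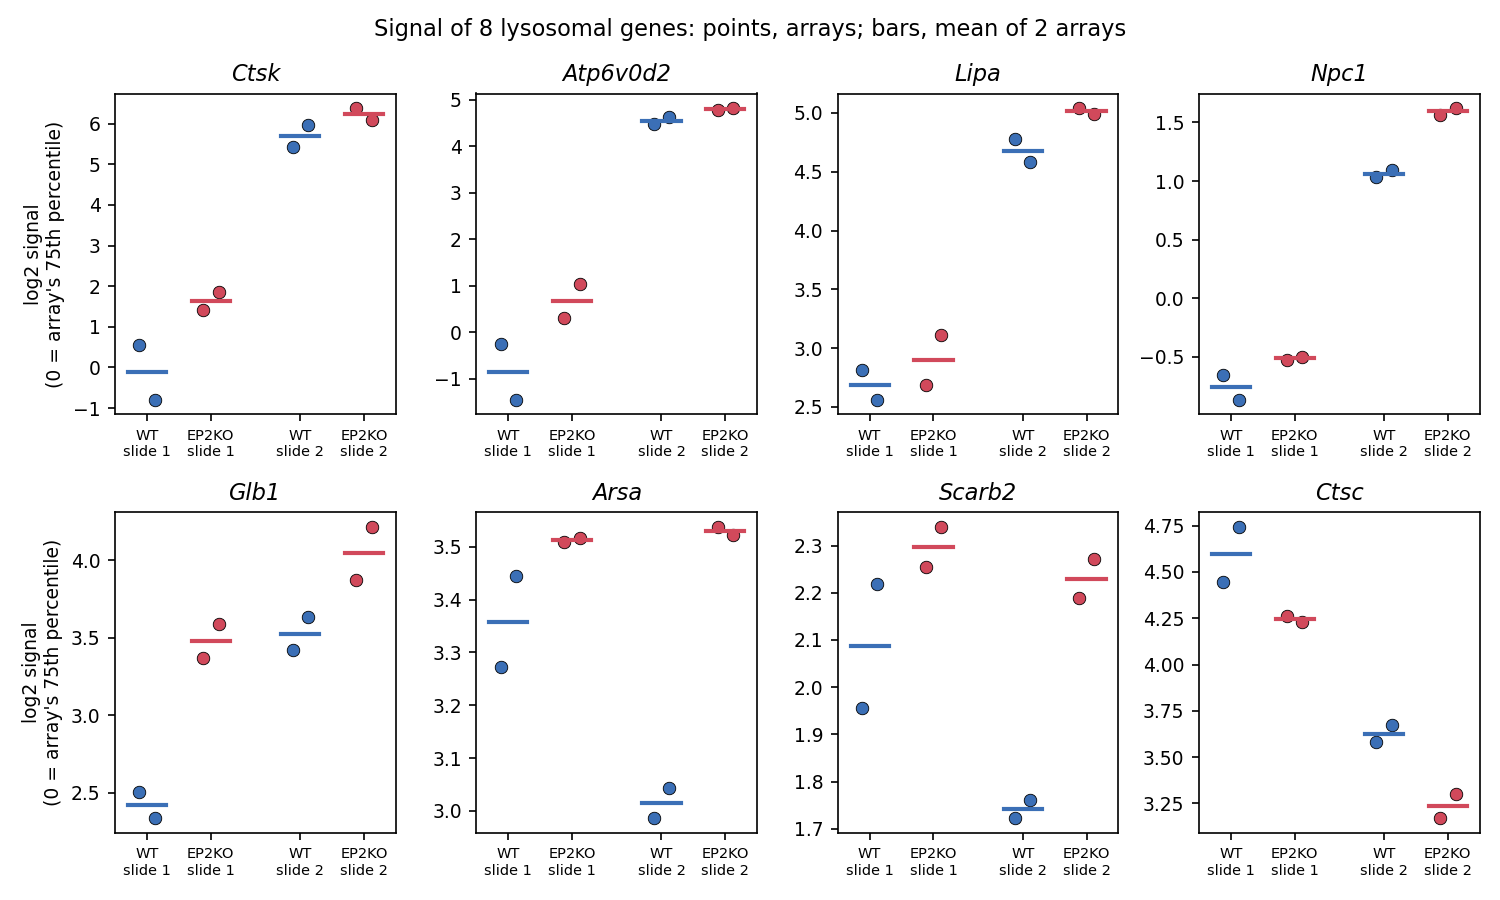
Log2 signal of 8 genes on each array, with 0 at the array's 75th percentile. Points are arrays (WT in blue, EP2KO in red) and bars the mean of 2 arrays, and the vertical scale differs between panels. Ctsk and Atp6v0d2 separate by slide, Arsa has every EP2KO array above every WT array, and Ctsc is lower on slide 2 and lower in EP2KO on both slides.

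The second comparison set slide 2 against slide 1 with the genotype in the model. Here most lysosomal genes differed: 37 of 47 were called by limma at an adjusted p of 0.05, against 43.2% of all features. Of the 47, 35 were higher on slide 2 (74.5% of the 47), where 25.1% of all features were called higher, and Ctsc and Idua were lower, where 18.2% were called lower. The median difference was 0.78 over the 47 and 0.06 over all features. By more than 1 log2 unit, 17 of 47 genes were higher (36.2%), against 9.98% of all features. Every slide 2 array lay above every slide 1 array for 34 genes and below for 2. Of 20705 features without a missing value 43.1% had slides that did not overlap, 5195 above and 3721 below.

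WT and EP2KO arrays gave these slide differences separately. The difference was above 0 in both genotypes for 39 of 47 genes and below 0 in both for 4, with medians of 0.71 in WT and 0.97 in EP2KO. Of 20705 features without a missing value 8495 were above 0 in both and 6668 below 0 in both, with medians of 0.01 and 0.13. Across the 47 genes, which are not independent replicates and share the same slides in both genotypes, Pearson's r was 0.95, and 0.88 without Ctsk and Atp6v0d2. Over these features r was 0.60.

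**Figure D3:**
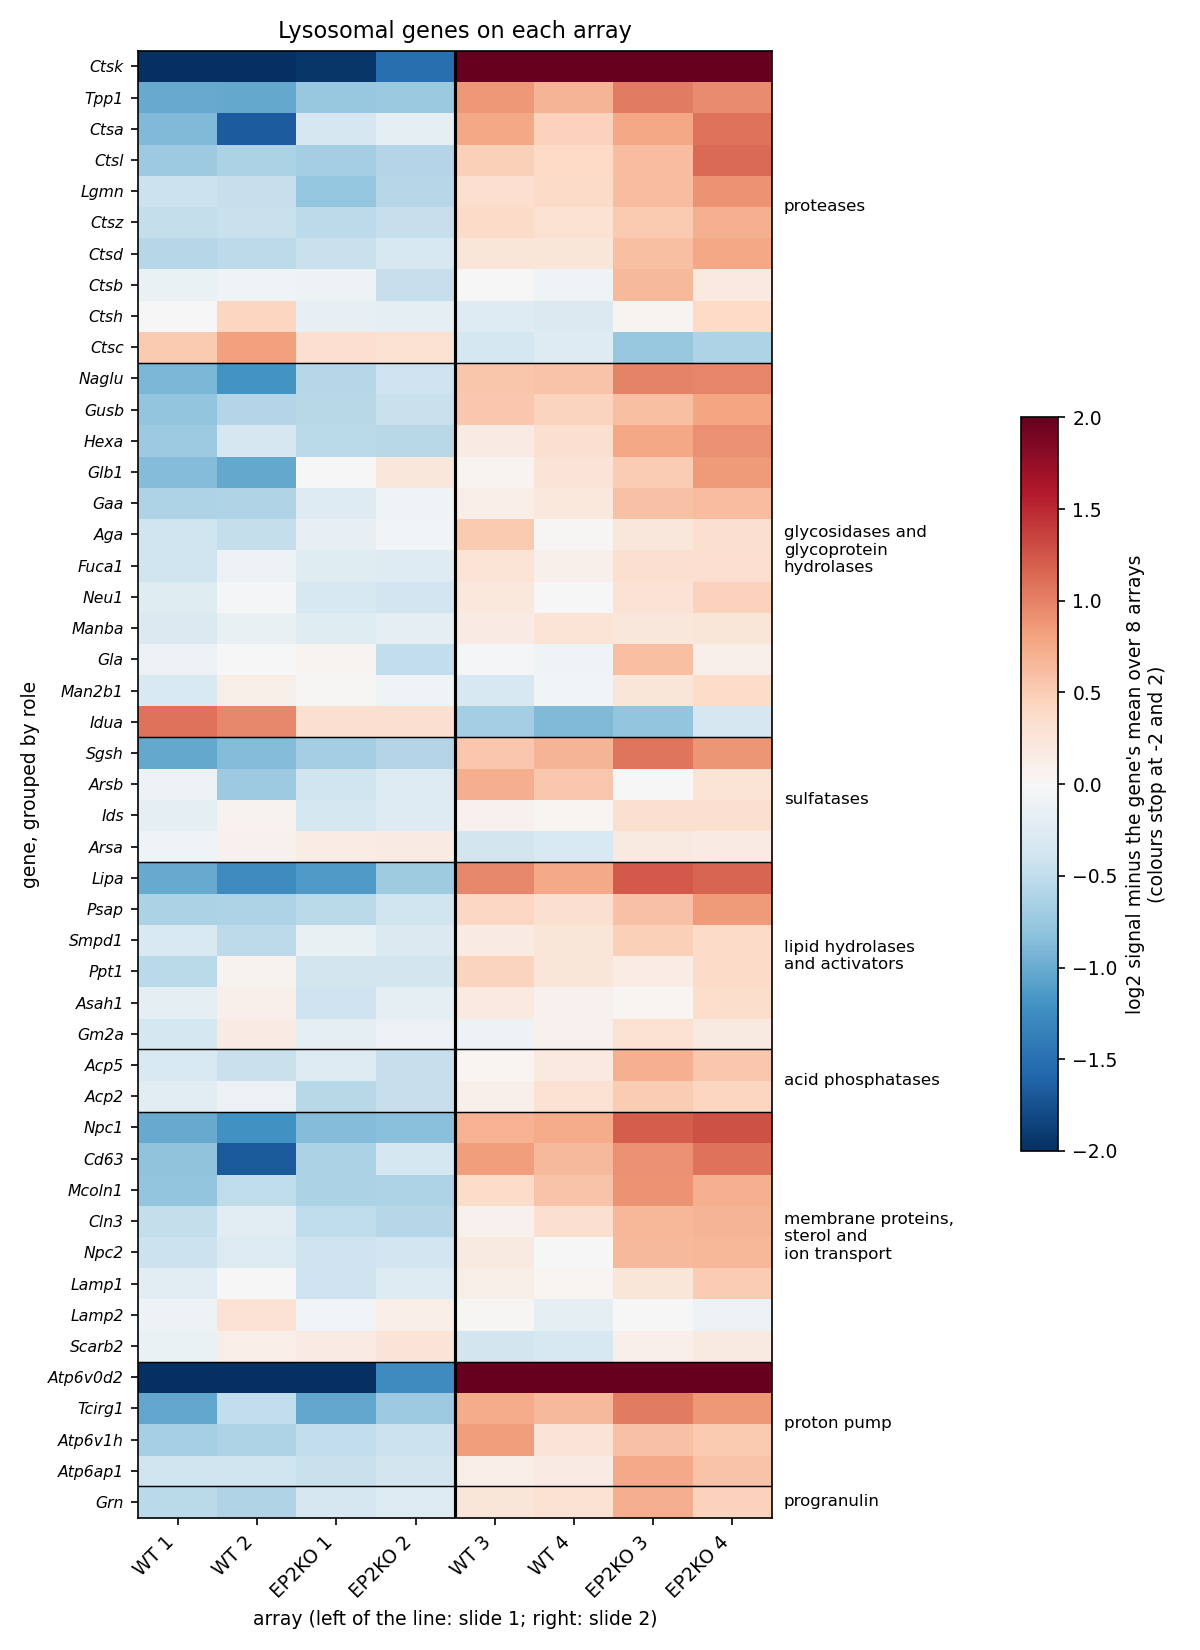
Log2 signal of each gene on each array minus the gene's mean over the 8 arrays, by role, with colours that stop at -2 and 2. Slide 1 arrays are left of the vertical line and slide 2 arrays right of it. Most rows turn from blue to red across the line, and Ctsc and Idua turn the other way.

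Among the proteases 7 of 10 were higher on slide 2 and Ctsc was lower. Ctsk had the largest difference of the 47, 5.21 ± 0.38 (SE, limma adjusted p = 0.000142), a 36.9-fold higher signal, at 5.81 within WT and 4.61 within EP2KO. Tpp1, tripeptidyl peptidase, read 2.09, 2.06, 7.64 and 6.67 in WT and 2.48, 2.50, 8.57 and 8.05 in EP2KO, which gave 1.76 ± 0.09 (adjusted p = 5.57e-05). The slides stood apart for both genes. Ctsl, a cysteine protease, was higher by 1.32 ± 0.15, and Lgmn, the asparaginyl endopeptidase that also processes cathepsins, by 1.12 ± 0.16. Ctsz rose by 0.96 ± 0.11 and Ctsd, the main aspartic protease, by 0.92 ± 0.10. Ctsb (0.38 ± 0.18) and Ctsh (-0.05 ± 0.21) did not pass the test. Ctsc fell by 0.99 on the log2 scale (SE 0.10, adjusted p = 0.000467), a 1.99-fold lower signal.

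The glycosidases and glycoprotein hydrolases moved less, with 9 of 12 higher on slide 2 and a median of 0.53. Naglu, an enzyme of heparan sulfate breakdown chosen after its values were seen, as was Tcirg1 among the pump genes, read 4.02, 3.32, 11.2 and 11.3 in WT and 5.15, 5.68, 15.1 and 14.9 in EP2KO, a difference of 1.55 ± 0.10. Gusb, beta-glucuronidase, was higher by 1.18 ± 0.10 and Hexa, the alpha subunit of hexosaminidase A, by 1.08 ± 0.16. Glb1 was higher by 0.84 ± 0.16 and Gaa, which degrades glycogen, by 0.78 ± 0.09. Aga, Fuca1, Neu1 and Manba were higher by 0.44 to 0.55. Gla (0.29 ± 0.19) and Man2b1 (0.13 ± 0.15) did not pass the test. The printed stretch of Gla holds 2 copies of the longer motif. The window of Ctsa also holds a copy before the start and a copy after it, the latter not printed. Ctsa was higher on slide 2 by 1.54 ± 0.23.

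Idua was called lower on slide 2 at its brighter probe (-1.35 ± 0.21, adjusted p = 0.00257). Its other probe, for the same transcript, was higher on slide 2 by 1.13. Averaged over both probes the difference was -0.11 and was not called (adjusted p = 0.594), so the direction of Idua depended on the probe.

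Of the 4 sulfatases, Sgsh and Arsb were higher on slide 2. Sgsh, a sulfamidase of heparan sulfate, read 24.5, 27.3, 72.3 and 79.6 in WT and 30.9, 33.4, 105 and 92.0 in EP2KO, a difference of 1.58 ± 0.10. Its second probe gave 0.57. Arsb was higher by 0.76 ± 0.19. Ids (0.37 ± 0.13) and Arsa (-0.16 ± 0.11) did not pass the test.

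Among the lipid hydrolases and activators 4 of 6 were higher on slide 2. Lipa, the acid lipase that frees cholesterol from its esters, read 7.02, 5.90, 27.4 and 24.0 in WT and 6.44, 8.63, 32.9 and 31.8 in EP2KO. All 4 slide 2 arrays were above all 4 slide 1 arrays, a difference of 2.06 ± 0.13 (adjusted p = 9.44e-05) or 4.16-fold. Psap, the precursor of the saposins that present lipids to hydrolases, was higher by 1.09 ± 0.11. Smpd1, acid sphingomyelinase, and Ppt1 were higher by 0.63 ± 0.10 and 0.61 ± 0.15. Asah1 (0.34 ± 0.14) and Gm2a, the ganglioside activator (0.24 ± 0.14), did not pass the test. Both acid phosphatases were higher, Acp5, the tartrate-resistant enzyme of osteoclasts and macrophages, by 0.75 ± 0.14 and Acp2 by 0.67 ± 0.15.

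Of the membrane and transport proteins 6 of 8 were higher on slide 2. Npc1, which moves cholesterol out of the lysosome, read 0.634, 0.549, 2.05 and 2.13 in WT and 0.695, 0.708, 2.96 and 3.08 in EP2KO, a difference of 1.96 ± 0.10 (adjusted p = 6e-05) or 3.90-fold. Npc2, the soluble protein that hands cholesterol to Npc1, was higher by 0.75 ± 0.15. Cd63 was higher by 1.73 ± 0.22 and Mcoln1, a cation channel that releases calcium, by 1.28 ± 0.13. Cln3 and Lamp1 were higher by 0.88 ± 0.16 and 0.45 ± 0.15. Lamp2 (-0.13 ± 0.12) and Scarb2 (-0.21 ± 0.11) did not pass the test.

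All 4 proton pump genes were higher on slide 2. Atp6v0d2 was higher by 4.77 ± 0.37 (adjusted p = 0.000172), a 27.2-fold higher signal, at 5.41 within WT and 4.13 within EP2KO. Tcirg1, the a3 subunit of the membrane sector, read 5.56, 8.07, 19.0 and 17.8 in WT and 5.55, 6.85, 23.4 and 20.7 in EP2KO, a difference of 1.65 ± 0.16. Atp6v1h and Atp6ap1 were higher by 1.09 ± 0.14 and 0.81 ± 0.13. Grn, progranulin, which is secreted and also cleaved in lysosomes, was higher by 0.87 ± 0.10.

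The slide difference was also set beside the promoter letters. Its median was 0.92 over the 13 genes whose window holds CACGTG, 0.75 over the 27 with a window lacking it, and 0.55 over the 7 with no window in the table. The window of Ctsk lacked the core, and Atp6v0d2 had no window. These medians are descriptions and were not tested.

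Further lysosomal genes outside the set were read the same way, counted with genes that deliver, modify, inhibit or regulate lysosomal enzymes. Of 80 such genes 77 were tested; Rnaset2b and Cd68 had no probe and Stfa1 was not bright enough. For EP2KO against WT 0 of 77 were called by limma with or without the slide block, with 15 at an unadjusted p under 0.05 under the slide block, against 7.34% of all features. On slide 2, 49 of 77 were higher and 8 lower, with a median of 0.67, and this count and those by group that follow stand beside 25.1% of all features called higher and 18.2% called lower. Of 14 further subunits of the proton pump 13 were higher, among them Atp6v0a1 by 3.02 ± 0.13 and Atp6v1c1 by 2.60 ± 0.11. Of 25 other hydrolases and related enzymes 17 were higher, with Hyal1, a hyaluronidase, at 4.59 ± 0.29 and Galc, galactosylceramidase, at 2.39 ± 0.17. Hgsnat, which is not a hydrolase (-1.25 ± 0.14), and Pld4 (-0.85 ± 0.19) were lower. Of 19 further membrane proteins 11 were higher, Slc15a3 by 2.42 ± 0.11 and Clcn7, a chloride and proton exchanger, by 1.74 ± 0.11, and Slc17a5, the sialic acid exporter, was lower (-1.41 ± 0.18).

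**Figure D4:**
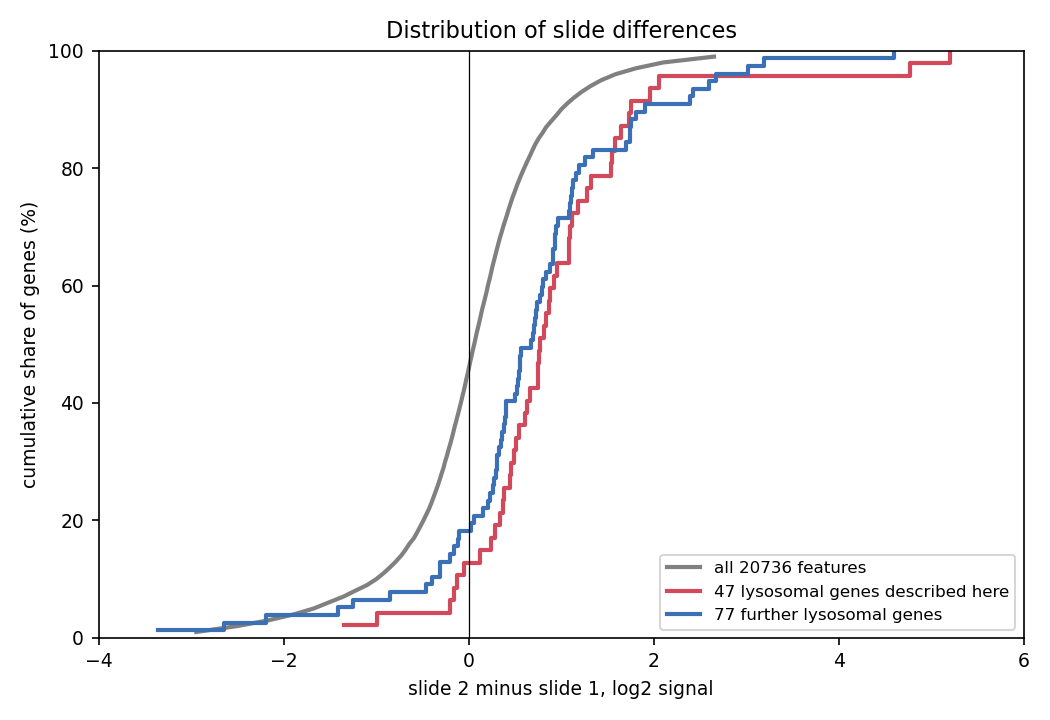
Cumulative share of genes (vertical axis, in percent) by their log2 difference slide 2 minus slide 1 (horizontal axis), for the 47 genes, 77 further lysosomal genes and all 20736 features, the last drawn from the 1st to the 99th percentile. The curves of both lysosomal sets lie to the right of that of all features, with medians of 0.78, 0.67 and 0.06.

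Markers of several other cell types moved with the slide too. The counts called here stand beside 25.1% of all features called higher on slide 2 and 18.2% called lower. The summed signal of 7 B cell markers was 57.9 to 94.9 on slide 1 and 5.56 to 15.8 on slide 2, with 5 of 7 called lower. That of 10 T and NK cell markers was 17.4 to 33.2 and 6.32 to 7.34 (8 of 10 lower), and that of 9 tested mast cell and eosinophil markers was 15.0 to 36.8 and 1.96 to 14.1 (8 of 9 lower). Markers of large resident peritoneal macrophages ran from 173 to 222 and from 84.8 to 99.2 (9 of 10 lower), those of monocytes from 81.1 to 119 and from 30.7 to 83.7 (4 of 6 lower). Of 8 tested neutrophil markers 4 were lower and 1 higher, with sums of 65.5 to 127 and 53.3 to 58.4. The 11 macrophage markers summed to 424 to 579 and 335 to 448, with 2 called higher and 4 lower. The 12 fibroblast and mesothelium markers summed to 25.7 to 98.9 and 17.7 to 153, with 1 called higher and 1 lower. Osteoclast markers, read because Ctsk, Atp6v0d2, Acp5 and Tcirg1 are also known from osteoclasts, were low on both slides (5.22 to 8.78 and 4.23 to 5.91), with 0 of 7 called higher, 3 lower, and Calcr without a signal above background. Epx, of eosinophils, was not above background either, Ngp, of neutrophils, was so on 2 arrays only, and Cd68, Ly6c2 and Ly6g had no probe. In such bulk samples fewer cells of a type and less RNA per cell cannot be told apart, and the part of these markers in the slide difference was not tested.

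Several of these lists also moved with the genotype, although 0 of their markers were called over all 8 arrays with or without the slide block. Mast cell and eosinophil markers summed to 27.0 and 15.0 on WT 1 and WT 2 against 36.4 and 36.8 on EP2KO 1 and EP2KO 2, and to 1.96 and 4.65 on WT 3 and WT 4 against 8.93 and 14.1 on EP2KO 3 and EP2KO 4. On slide 2 alone Cpa3, Mcpt4 and Cma1 of this list were called higher in EP2KO. Of all 20736 features 1.05% were called there, 11 higher and 206 lower. From the other lists, Ltbp1 of the resident macrophage markers was called higher on that slide. Lower there were 1 of 7 B cell markers and 3 of 12 fibroblast and mesothelium markers. The T and NK cell markers were lower in EP2KO for 10 of 10, with 8 of 10 at an unadjusted limma p under 0.05 under the slide block. Of all 20736 features 11738 were lower in EP2KO and 8998 higher, and 7.34% were at that p. Their sums were 33.2 and 31.6 against 27.1 and 17.4 on slide 1, and 6.32 and 6.51 against 6.98 and 7.34 on slide 2. Large resident peritoneal macrophage markers were higher in EP2KO for 8 of 10 (median 1.1, 6 of 10 at that p), with sums of 173 and 222 against 215 and 222 on slide 1 and 98.9 and 84.8 against 99.01 and 99.20 on slide 2. Icam2 and Fn1 made up most of these sums (79.8 and 73.8 on WT 1), and their genotype differences were 0.11 and -0.05. B cell markers summed to 93.6 and 75.01 against 94.9 and 57.9 on slide 1 and to 12.5 and 15.8 against 5.56 and 8.68 on slide 2.

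The 12 fibroblast and mesothelium markers summed to 97.2 and 25.7 on WT 1 and WT 2 against 61.0 and 98.9 on EP2KO 1 and EP2KO 2, and to 143 and 153 on WT 3 and WT 4 against 42.7 and 17.7 on EP2KO 3 and EP2KO 4. Over all arrays 1 of 12 was higher in EP2KO (median -1.23), against 43.4% of all features. On slide 1, 10 of 12 were higher (median 0.90), and on slide 2, 0 of 12 (median -3.49). Their interaction was below 0 for 12 of 12 (median -4.39), with 0 called. An unadjusted limma p under 0.05 for it was found for 9 of 12, against 21.1% of all features. Monocyte, neutrophil, macrophage and osteoclast markers had median genotype differences of -0.44, -0.07, -0.04 and -0.06. The part of all these markers in the genotype differences of the lysosomal genes was not tested.

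The third comparison asked whether the genotype difference itself differed between the slides. By the interaction term 0 of 47 genes were called, against 0.0145% of all features (3). An unadjusted p under 0.05 was found for 10 of 47 genes (21.3%), close to the 21.1% of all features. All 10 were positive, meaning a genotype difference more positive on slide 2, where 11.1% of all features were at that p and positive. The term was above 0 for 35 of 47 genes (74.5%) and for 62.0% of all features, with medians of 0.28 and 0.14. After quantile normalization it was above 0 for 22 of 47, with a median of -0.04, so its direction over the set depended on the scaling.

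The smallest p-values belonged to Idua, Ctsh, Npc2, Acp2 and Cln3. For Idua the genotype difference was -0.70 on slide 1 and 0.22 on slide 2 at the brighter probe, and -0.06 and 0.33 at the dimmer one. Ctsh, an aminopeptidase, read 83.7, 112, 69.3 and 67.9 in WT and 74.0, 73.5, 86.0 and 110 in EP2KO. It was lower in EP2KO on slide 1 (-0.39) and higher on slide 2 (0.50), and the interaction was 0.90 ± 0.27 with a limma adjusted p of 0.156. Npc2 read 26.3, 29.1, 40.1 and 35.2 in WT and 26.6, 27.1, 55.2 and 56.1 in EP2KO, so that its genotype difference was -0.04 on slide 1 and 0.57 on slide 2. Its interaction was 0.61 ± 0.18 with an adjusted p of 0.156.

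Acp2, a lysosomal acid phosphatase, read 1.26, 1.35, 1.57 and 1.80 in WT and 0.998, 1.07, 2.07 and 1.96 in EP2KO. Cln3, a membrane protein mutated in Batten disease, read 4.69, 5.59, 6.92 and 8.11 in WT and 4.60, 4.41, 10.3 and 10.5 in EP2KO. For both genes the EP2KO arrays were the lower on slide 1 and the higher on slide 2, with adjusted p-values of 0.159 and 0.165. Interactions below 0 were led by Atp6v0d2 (-1.28 ± 0.59), Glb1 (-0.54 ± 0.25) and Ctsk (-1.20 ± 0.63), for which the genotype difference was smaller on slide 2, and by Arsb (-0.60 ± 0.32) and Ctsa (-0.70 ± 0.40). None of these 5 had an adjusted p below 0.269. The Ctsa genotype difference was 1.01 on slide 1 and 0.31 on slide 2 at this probe. At its dimmer probe, for another transcript, these were 0.01 and -0.02, so its interaction was not shared by the gene's probes.

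For 4 role groups the gene with the smallest p for genotype has not yet been given by array. Smpd1 read 6.10, 5.24, 8.40 and 8.86 in WT and 6.79, 6.14, 10.4 and 9.80 in EP2KO. Within each slide both EP2KO arrays were above both WT arrays, by 0.19 and 0.23 in the mean. Grn read 38.0, 36.5, 65.5 and 68.4 in WT and 43.9, 45.9, 91.9 and 75.8 in EP2KO, and both EP2KO arrays were above both WT arrays on each slide. Acp5 read 41.4, 37.4, 52.5 and 58.8 in WT and 42.3, 37.0, 84.0 and 74.3 in EP2KO, and Atp6ap1, an accessory subunit of the pump, read 5.94, 5.92, 8.58 and 8.83 in WT and 5.74, 6.07, 13.2 and 11.6 in EP2KO. For these 2 genes the genotype difference was 0.01 and -0.01 on slide 1 and 0.51 on slide 2, and neither interaction passed the test (adjusted p of 0.237 and 0.179).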

How the data were processed

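RNA had been labelled with Cy3 and hybridised to 8 1-colour Agilent arrays. Per the file headers, the authors deposited scanner files of spot intensity from Feature Extraction 10.7.1.1 (version 9.1 per the submitters' processing notes); the processed signal is background-corrected and unscaled. The deposited series table held the same intensity values. From these, log2 signal minus each array's 75th percentile was computed. Control spots were left out and outlier spots set missing. Probes were named through RefSeq transcripts (GRCm38.p6), and probes well above background on every array of WT, of EP2KO or of both were kept. Each gene was read from its brightest kept probe, which gave 20736 features.

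Differences were tested by lmFit and eBayes of limma 3.58.1 (R 4.3.3), two-sided, with Benjamini-Hochberg adjustment over all features at 0.05. The fits were checked on simulated data. The members and gene lists were chosen with earlier results of these data known. Genes given by array are the 5 per direction with the largest genotype difference, the 5 per direction with the largest slide difference among those called, the 5 per sign with the smallest interaction p, those whose probes disagree by over 1, and the smallest genotype p of each role; others were chosen after their values were seen. Deviations from the genotype means correlated between arrays with the same replicate number (0.74, 0.12, 0.55 and 0.43). Such arrays also share a slide, and these deviations still hold the slide difference. The correlations therefore cannot show whether the number pairs arrays, and it was tried as a block. Alternatives covered background, scaling, filters, probes, blocks, weights and each array left out.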

Additional observations from a re-analysis of the deposited data

How the results depend on the processing

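No lysosomal gene was called for genotype or for the interaction under any alternative run, and those called for slide numbered 28 (normexp background correction, which used median spot signals because no mean was found) to 41 (array weights). The median slide difference over the 47 genes was 0.70 with normexp, 0.72 with median centring and 0.87 with array weights, and 0.74 (without EP2KO 1) to 0.83 (without WT 1) with each array left out. It exceeded the median of all features by 0.52 to 0.77 in all 18 settings. The median genotype difference was 0.19 with the replicate block and the slide blocks. Each slide and each replicate number holds as many WT as EP2KO arrays, so these blocks could not change it. Over 31 settings, those blocks included, it exceeded the median of all features by 0.06 to 0.40. With the replicate block 0 of 47 genes were called for genotype and 0 for the interaction. Median centring moved the median genotype difference of all features from -0.03 to 0.11, and that of the 47 genes to 0.33. Of 480 refits of single genes for genotype 16 changed sign, none of them called, and Idua lost its slide call with its probes averaged. The number of arrays, 2 per genotype on each slide, limits the precision.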

Other observations

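Genes that act on lysosomal enzymes rather than in the lumen also differed between the slides. Igf2r, the receptor that carries mannose 6-phosphate-tagged enzymes, was higher on slide 2 by 3.19 ± 0.21 (SE, limma adjusted p = 0.000111), and Gnptab, which makes the tag, by 1.13 ± 0.11 (adjusted p = 0.000387). Of 9 genes of enzyme delivery 5 were higher and 0 lower, beside 25.1% of all features called higher and 18.2% lower. The same shares stand beside the counts of regulators and cathepsin inhibitors that follow. All 9 genotype differences were above 0 over all arrays, against 43.4% of all features, with 0 called. By slide, 3 of 9 were above 0 on slide 1 (median -0.10, against 36.6% of all features) and 9 of 9 on slide 2 (median 0.37, against 56.7%). Of the 4 MiT/TFE regulators 2 passed the test, Mitf, higher by 1.11 ± 0.09, and Tfeb, higher by 0.94 ± 0.22. Tfec at 0.92 ± 0.33 (adjusted p = 0.0602) and Tfe3 at 0.38 ± 0.13 (adjusted p = 0.0503) missed the threshold.

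Cathepsin inhibitors were mixed. Of 6 tested, Stfa3 (-3.36 ± 0.71), Cst7 (-2.64 ± 0.35) and Stfa2 (-2.19 ± 0.31) were lower on slide 2, Cstb was higher (1.74 ± 0.17), and Cst3 (0.35 ± 0.17) and Cst6 (-0.31 ± 0.21) did not pass the test. Stefin A genes are near-identical copies whose probes may not tell them apart, and they are also known from neutrophils, whose 8 tested markers summed to 65.5 to 127 on slide 1 and 53.3 to 58.4 on slide 2. The part of those markers was not tested.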
